A study of Homo sapiens with 4 samples.

Results

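Keratins, the intermediate filament proteins of epithelial cells, are encoded by 55 of the 20037 human protein-coding genes on the placed chromosomes. They were taken from a RefSeq table of GRCh38.p14 as symbols KRT followed by a number and at most 1 letter, which leaves out the keratin-associated proteins. They lie in 2 clusters. The type I cluster on chromosome 17 (40654665 to 41624575, 970 kb) holds 28 of them, and the type II cluster on chromosome 12 (52168996 to 52952906, 784 kb) holds 27, all type II keratins except KRT18.

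The cells were HSC-5, an established line from a human cutaneous squamous cell carcinoma, grown in medium with serum, and the labels give no treatment. Chromatin was fixed with 1% formaldehyde for 12 min, and the labels give 2 input libraries and 2 libraries immunoprecipitated with the p63 antibody D9L7L. All libraries come from 1 line, and separate cultures are not stated for the replicates, so their differences may be technical. No RNA was measured, so whether HSC-5 cells express a given keratin was not examined. The replicate 1 list rests on 12687447 kept tags and that of replicate 2 on 868393, 6.84% as many. Positions below are summits of replicate 1 in GRCh38, the numbering its contig names follow although the processing notes name hg19. Replicate 2 follows another numbering and enters only where a peak of each list could be paired by spacing.

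A keratin filament is built from 1 type I and 1 type II protein, and epithelial layers are known by the pair they make. Basal keratinocytes make KRT5 and KRT14, cells above them KRT1 and KRT10, wounded or hyperproliferative epidermis KRT6, KRT16 and KRT17, simple epithelia KRT8 and KRT18, and the hair shaft its own set. p63, a transcription factor of the p53 family, maintains the basal layer, and KRT5 and KRT14 are genes it is known to regulate in keratinocytes. Members of the family bind a site made of a pair of half-sites of 10 bases.

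The stretches before the starts of KRT5, KRT8, KRT10 and KRT20 are shown because these basal, simple and suprabasal keratins carry an exact p53 family half-site there. Each runs 250 bases 5′ to 3′ up to the base before the start (RefSeq, GRCh38.p14, minus strand), with the half-site in capitals. They lie at chr12:52520395-52520644, chr12:52926470-52926719, chr17:40822615-40822864 and chr17:40885243-40885492 in that order.
KRT5: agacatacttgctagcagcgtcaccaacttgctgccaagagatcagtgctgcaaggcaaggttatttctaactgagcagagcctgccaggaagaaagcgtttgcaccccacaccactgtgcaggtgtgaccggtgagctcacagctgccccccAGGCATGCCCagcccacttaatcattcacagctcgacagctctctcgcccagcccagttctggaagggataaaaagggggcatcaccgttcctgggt
KRT8: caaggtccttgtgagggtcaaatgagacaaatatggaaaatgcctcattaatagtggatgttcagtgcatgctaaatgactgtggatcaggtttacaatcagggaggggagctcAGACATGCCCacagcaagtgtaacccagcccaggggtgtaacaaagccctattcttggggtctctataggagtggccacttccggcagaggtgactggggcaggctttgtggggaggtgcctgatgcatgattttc
KRT10: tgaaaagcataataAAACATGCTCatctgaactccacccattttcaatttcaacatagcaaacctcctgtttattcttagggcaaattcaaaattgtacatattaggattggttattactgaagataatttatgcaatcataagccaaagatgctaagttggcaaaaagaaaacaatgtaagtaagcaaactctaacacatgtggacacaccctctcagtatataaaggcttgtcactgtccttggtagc
KRT20: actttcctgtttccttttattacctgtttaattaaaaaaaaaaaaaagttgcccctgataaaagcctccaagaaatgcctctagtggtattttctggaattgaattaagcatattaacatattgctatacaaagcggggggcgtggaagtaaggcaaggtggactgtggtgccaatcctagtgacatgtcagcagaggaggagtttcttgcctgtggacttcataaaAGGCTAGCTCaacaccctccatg

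The KRT5 half-site AGGCATGCCC covers bases 97 to 88 before the start, and the KRT8 half-site AGACATGCCC bases 136 to 127. In KRT10 the half-site AAACATGCTC lies farther out, at 236 to 227, and in KRT20 AGGCTAGCTC lies close in, at 23 to 14. The KRT8 start used, at 52926469, lies inside the gene's span of 52897191 to 52949860, short of its 5′ end. Windows at any other start of KRT8 were not searched. None of these windows held a p63 summit. The nearest summit lay 59.9 kb from the KRT5 start with 11 tags, 40.3 kb from the KRT8 start with 14 tags, 14.1 kb from the KRT10 start with 10 tags and 48.5 kb from the KRT20 start with the same 10 tags.

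Windows of 250 bases before to 50 after a start were found for 34 of the 55 keratins. Those without one are KRT1, KRT6A, KRT6B, KRT6C, KRT7, KRT13, KRT14, KRT15, KRT16, KRT17, KRT18, KRT19, KRT23, KRT72, KRT77, KRT78, KRT80, KRT81, KRT83, KRT86 and KRT222. A summit lay in 0 of the 34, beside 0.234% of 15843 protein-coding genes with such a window. The p53 family half-site, which reads the same on both strands, was matched exactly in 8 of the 34 (23.5%) against 8.07% of all 15843. The other members with a match were the suprabasal KRT2 and KRT76, the root sheath keratin KRT25 and KRT24. A full site of 20 bases with at most 3 mismatches was found in KRT4, KRT8 and KRT10, or 8.82% of the 34 against 6.24% of all. The core pair of the full site, its 4 fixed letters at their spacing with every other base free, was in 58.8% against 85.2%, so the 3 searches did not place keratins on the same side of all genes. A match describes these letters and is not a shown binding site. Each keratin was searched at a single start.

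Within 100 kb of a keratin gene lay 11 replicate 1 peaks, 8 inside the clusters and 3 beyond their ends. They held 176 tags in all. A tag is a sequencing read kept after removal of duplicates, and the fold is the deposited ratio of the immunoprecipitate to the scaled control. The 11 peaks had median values of 11 tags (range 8 to 51), 308 bp in width and 15.8 in fold, beside 10 tags, 245 bp and 13.4 over all 3994 peaks on the chromosomes. More than 10 tags were held by 7 of the 11 (63.6%) and by 46.2% of all peaks. The weakest listed peak has 8 tags, so binding below that level was not detectable at this depth. Intervals below are exact Poisson 95% intervals and cover counting error only.

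**Figure D1:**
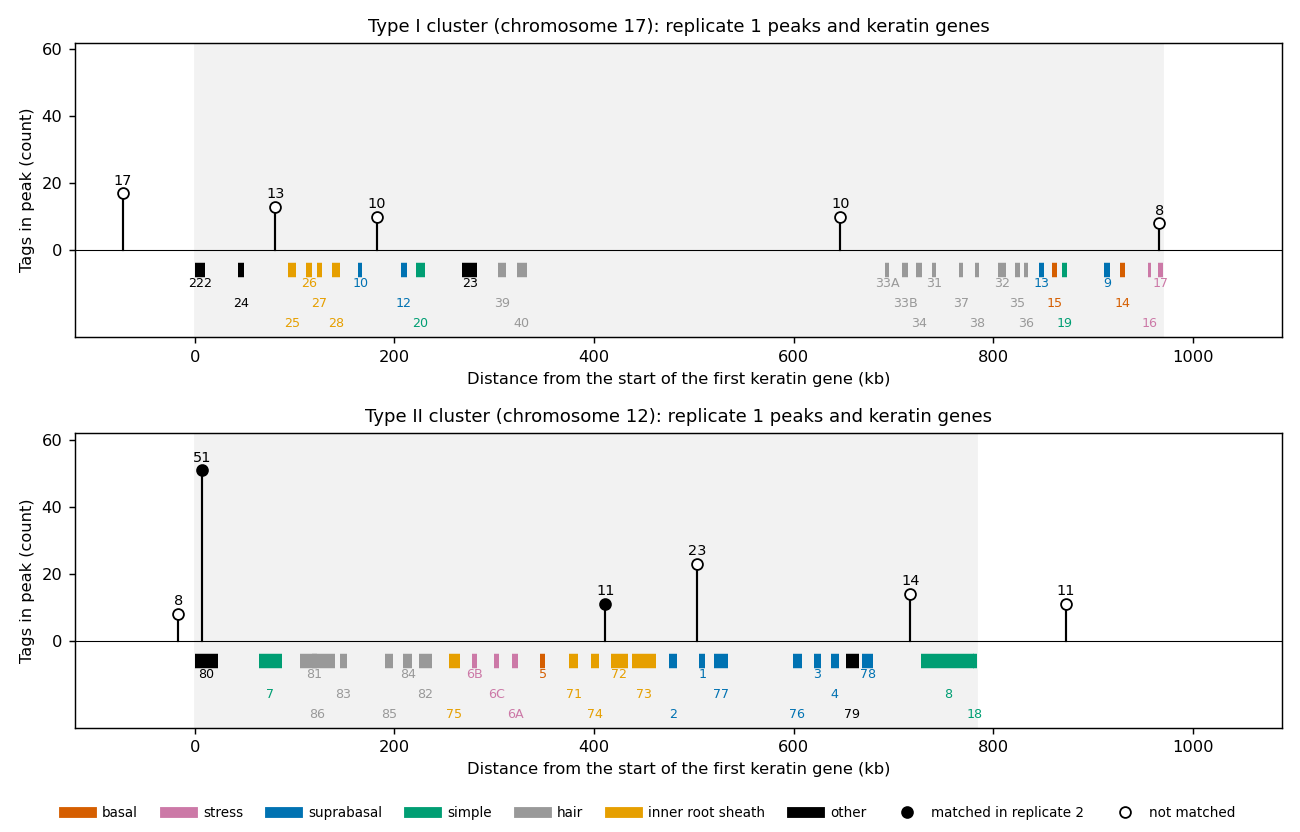
Replicate 1 peaks (stems, height = tags) and keratin genes (bars coloured by class, labelled by the number after KRT) in the type I cluster (top) and type II cluster (bottom), against distance from the start of the first keratin gene in kb. Grey marks the cluster, and filled circles are peaks matched in replicate 2. The KRT80 peak has 51 tags and the 5 peaks drawn on chromosome 17 have 17 or fewer.

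KRT80, an epithelial type II keratin at the edge of its cluster, held the strongest of the 11 peaks. This peak (chromosome 12, 52175958 to 52176470) lay inside the gene and had 51 tags (38.0 to 67.1) over 513 bp, with a fold of 47.65. By fold it ranked 20 and by tags 254 among the 3994. In replicate 2 the paired peak had 10 tags (4.80 to 18.4). Both replicates thus listed this site, and since depth and control differ between the lists, their tags are not compared. The note in the authors' deposited table calls this peak an unknown site inside KRT80 that is not an established enhancer region. A second, weak peak (52152268 to 52152465) lay 16.7 kb from KRT80 with 8 tags (3.45 to 15.8) and a fold of 11.92 and had no match.

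The other keratin site found in both lists lay between KRT74 and KRT72, keratins of the inner root sheath of the hair follicle. It had 11 tags (5.49 to 19.7) and a fold of 14.52 in replicate 1 (52580094 to 52580441) and 8 tags (3.45 to 15.8) in replicate 2. Its summit was 5.30 kb from KRT72 and 6.45 kb from KRT74. The summits of the KRT80 site and the KRT72 site were 404092 bp apart in replicate 1 and 404123 bp in replicate 2, a difference of 31 bp. Their offsets recurred in 5 and 6 other pairs. Across the list 210 peaks (5.26%) were paired in this way, so 2 of 11 keratin peaks is a small count to read against it. Between the paired sites replicate 2 had 1 further peak, of 4 tags, and replicate 1 had 0. This span holds the 6 type II hair keratins, KRT6A, KRT6B, KRT6C and KRT5.

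KRT1, the type II keratin of differentiating epidermis, had the second highest tag count. The peak (52672416 to 52672756) lay 2.20 kb from the gene and had 23 tags (14.6 to 34.5) and a fold of 14.44. Its summit lay below the lower coordinate of the KRT1 span (52674736 to 52680407). KRT1 is without a promoter window, so the distance to its start was not measured. This peak ranked 548 by tags and 1733 by fold, unlike the KRT80 peak, which ranked higher by fold. KRT2, of the upper epidermis, lay 20.3 kb from that summit and KRT77 17.1 kb. No paired peak was found for it: the next replicate 2 summit beyond the KRT72 site was 68.5 kb away, and the KRT1 summit is 92.2 kb beyond it. KRT10, the type I partner of KRT1, had its nearest summit 14.1 kb away (chromosome 17, 40836592 to 40836805), before the gene's start on its strand. That peak had 10 tags (4.80 to 18.4) and a fold of 10.21, the lowest fold of the 11.

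Of the 5 stress keratins, 3 had a summit within 100 kb, beside 29.9% of all genes, and 2 within 10 kb, beside 10.2%. Those within 10 kb were the type I genes, which share a single peak. Over so few genes this is no sign of a difference from the type II genes. KRT17 held a summit in its span and KRT16 lay 8.52 kb from it, both the same peak of 8 tags (3.45 to 15.8) at 41621208 to 41621365. It was 158 bp wide, the narrowest of the 11. Its fold of 20.76 is shared by 87 peaks, which hold 8 to 17 tags. The table also lists 6 KRT16 and 8 KRT17 pseudogenes, and how reads were divided among such copies is not given in the sources used here, so this peak is uncertain. KRT6A, a type II partner of both, was 87.0 kb from its nearest summit, and KRT6C (106 kb) and KRT6B (128 kb) were over 100 kb away.

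Of the 3 basal keratins, 2 had a summit within 100 kb, beside 29.9% of all genes. Within 10 kb the count was 0, beside 10.2%, which over 3 genes is no sign of a lower share. KRT14 was 34.4 kb from the KRT17 summit of 8 tags, KRT5 was 59.9 kb from the KRT72 summit of 11 tags, and KRT15, a type I keratin of basal cells and hair follicle stem cells, was 102 kb from the KRT17 summit. The nearest summits of KRT5 and KRT14 each lay closer to another keratin.

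All 5 simple epithelial keratins had a summit within 100 kb, beside 29.9% of all genes, and 0 had one within 10 kb, beside 10.2%, which over 5 genes is no sign of a lower share. The closest was KRT8, 11.01 kb from a peak of 14 tags (7.65 to 23.5) and fold 12.66 at 52886026 to 52886402. That peak lies in the pseudogene RPL7P41, beyond the 3′ end of KRT8. KRT18, the type I partner and neighbour of KRT8, was 62.7 kb from the same summit. KRT20 of the gut lining was 39.2 kb, KRT7 57.0 kb and KRT19 93.0 kb from their nearest summits. A further peak of 11 tags within 100 kb of KRT18 and KRT8 (53042032 to 53042358) lay inside EIF4B, a translation initiation factor gene.

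Hair keratins had the longest median distance of the 7 classes, 131 kb (44.5 to 193 kb), which is still shorter than the 237 kb of all protein-coding genes. Of 17, 5 had a summit within 100 kb (29.4%), near the 29.9% of all genes, and 0 within 10 kb, beside 10.2%. Hair keratins made up 12 of the 17 members with no summit within 100 kb. They form 1 run on chromosome 12 (KRT86 to KRT82) and 2 runs on chromosome 17 (KRT39 and KRT40, and KRT33A to KRT36), so they share their distances. Of the inner root sheath and companion layer keratins, whose cells surround the hair shaft, 8 of 9 had a summit within 50 kb, beside 19.8% of all genes, and the median distance was 27.3 kb. These 9 genes have 4 distinct peaks within 100 kb. In this class KRT75 was the exception at 146 kb. On chromosome 17, KRT25, KRT26 and KRT27 had as their nearest a peak of 13 tags (6.92 to 22.2) and fold 19.11 at 40735103 to 40735410, which lay 12.8 kb from KRT25.

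Suprabasal keratins had a median distance of 37.2 kb, beside 237 kb over all genes, and 10 of 11 had a summit within 100 kb, beside 29.9%. The palmoplantar KRT9 was 49.2 kb from the KRT17 summit. The mucosal pair KRT4 and KRT13 lay 72.1 and 116 kb from a summit, and the corneal pair KRT3 and KRT12 lay 90.1 and 24.6 kb. The distance ranges of all classes overlapped, and the closest basal and hair keratins were 34.4 and 44.5 kb from a summit. Because neighbours share peaks, the classes are not independent sets and no test was made between them.

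**Figure D2:**
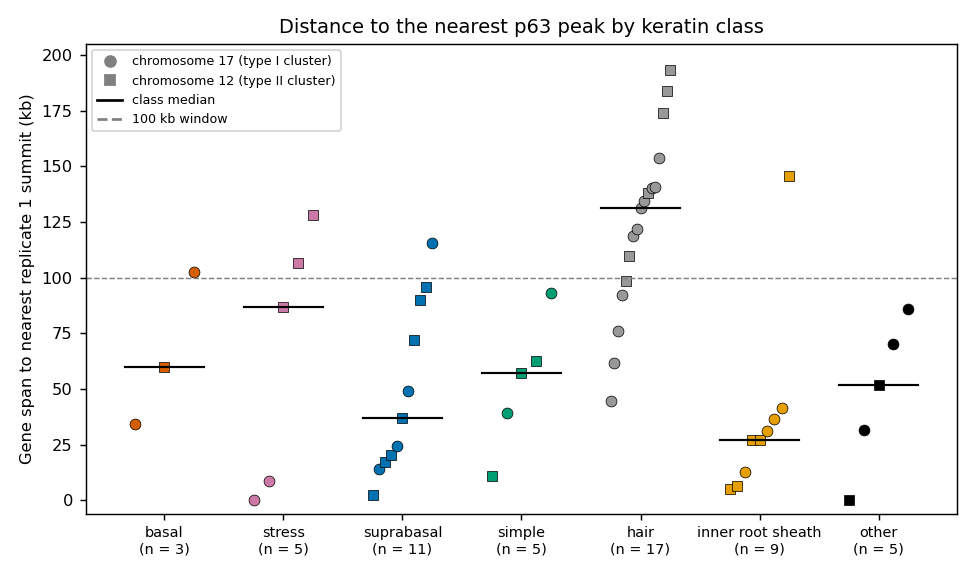
Distance in kb from each keratin gene span to the nearest replicate 1 summit, by class (1 point per gene, circles chromosome 17, squares chromosome 12, bars class medians, dashed line 100 kb). Hair keratins have a median of 131 kb and inner root sheath keratins 27.3 kb.

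How common a keratin peak looked depended on the window. With 100 kb, 38 of 55 keratins (69.1%) had a summit, beside 29.9% of all protein-coding genes. At 50 kb 23 had one (41.8%), beside 19.8%. Within 10 kb the count was 6 (10.9%), near the 10.2% of all genes, and in the gene span it was 2 (3.64%), beside 7.10%. The 6 are KRT80, KRT1, KRT72, KRT74, KRT16 and KRT17. Keratin genes are short, with a median span of 6.43 kb against 24.1 kb over all genes, and 1 peak lay within 100 kb of up to 8 keratins, so the 38 genes rest on 11 peaks. At the 100 kb limit KRT86 (98.4 kb) lay just inside and KRT15 (102 kb) just outside, and the next peaks beyond it were 105 kb from the type II cluster (8 tags) and 117 kb from the type I cluster (11 tags).

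**Figure D3:**
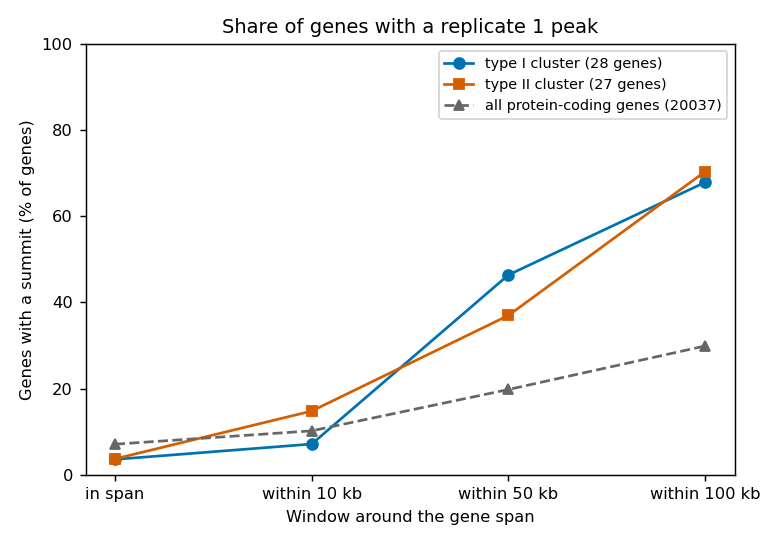
Percent of genes with a replicate 1 summit in the gene span or within 10, 50 and 100 kb, for the 28 genes of the type I cluster, the 27 of the type II cluster and all 20037 protein-coding genes. The clusters are at or below 14.8% up to 10 kb and reach 67.9% and 70.4% at 100 kb, where all genes are at 29.9%.

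The type I and type II clusters could not be told apart in peak density at this depth. Each held 4 peaks from its first to its last keratin, which is 4.12 per Mb (1.12 to 10.6) on chromosome 17 and 5.10 per Mb (1.39 to 13.1) on chromosome 12. The ratio of type II to type I was 1.24, with an exact 95% interval of 0.23 to 6.64, which covers ratios on both sides of 1. The rest of each chromosome, between its first and last protein-coding gene, held 1.90 per Mb (1.61 to 2.22) on chromosome 17 and 1.75 (1.53 to 1.99) on chromosome 12. Both of those values lie inside the interval of the cluster on the same chromosome. Over chromosomes 1 to 22 and X the density was 1.31 per Mb (1.27 to 1.35), which lies inside the interval of the type I cluster and just below that of the type II cluster. Among genes, 19 of 28 in the type I cluster and 19 of 27 in the type II cluster had a summit within 100 kb, and 2 and 4 had one within 10 kb.

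Tags per peak were higher in the type II cluster as single values, with overlap. The 4 peaks inside the type II cluster had 51, 11, 23 and 14 tags and those inside the type I cluster 13, 10, 10 and 8. The interval of the KRT80 peak (38.0 to 67.1) lay above that of the highest type I value (6.92 to 22.2), while those of the other 3 overlapped it. The median fold gave another order, at 14.5 in the type II cluster and 18.6 in the type I cluster. The highest single fold (47.65) was nevertheless in the type II cluster and the lowest (10.21) in the type I cluster. Peaks inside the type II cluster were also wider, at 341 to 513 bp against 158 to 308 bp. Both paired sites are on chromosome 12, and 0 of the 5 chromosome 17 peaks had a match in replicate 2. With 5.26% of all 3994 peaks paired, 0 of 5 is no sign of a difference between the clusters.

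**Figure D4:**
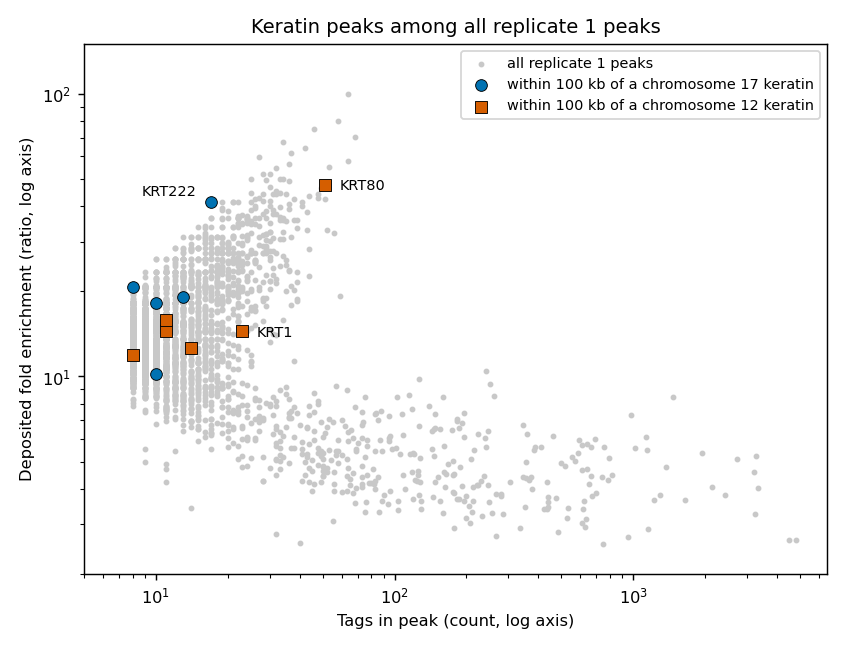
Deposited fold enrichment against tags, both on log axes, for all 3994 replicate 1 peaks (grey) and the 11 peaks within 100 kb of a keratin on chromosome 17 (circles) or 12 (squares), those over 15 tags labelled by nearest keratin. The KRT80 peak (51 tags, fold 47.65) and the peak nearest to KRT222 (17 tags, fold 41.52) stand above the other 9, whose folds are 10.2 to 20.8.

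The peaks left stretches of several keratins without a summit, none longer than the spacing that the density over chromosomes 1 to 22 and X gives on average. On chromosome 12 the 404 kb between the KRT80 and KRT72 summits held 14 keratins, from KRT7 to KRT74. On chromosome 17 the 320 kb from the peak near KRTAP29-1 to the KRT17 summit held 15, from KRT33A to KRT16. The longest gap among the 11 peaks, 465 kb, lay between the KRT10 summit and a peak of 10 tags (41301507 to 41301745) that was 0.209 kb from KRTAP29-1, a keratin-associated protein gene. The 17-tag peak of fold 41.52 outside the type I cluster (40582414 to 40582597) was 17.02 kb from the chemokine receptor gene CCR7 and 72.2 kb from KRT222, so its nearest gene is no keratin. The nearest protein-coding gene was a keratin for 8 of the 11 peaks.

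Genes whose products bind or accompany keratin filaments were counted in the same way, with no test of their shares. Of 12 linker genes, 9 had a summit within 100 kb (75.0%, beside 29.9% of all genes) and 4 within 10 kb (33.3%, beside 10.2%). These were PKP3, a desmosomal plakophilin with 11 tags in its span, the plakin DST with 11 tags in its span, PLEC, another plakin, at 8.99 kb with 12 tags, and FAM83H, a keratin organiser, at 4.87 kb with 9 tags. DST had 2 peaks within 10 kb, and its values here are those of 1 of them. Desmoplakin (DSP), the desmosomal anchor of keratin filaments, was 10.4 kb from a peak of 9 tags, just outside that limit. The linkers' median span of 41.2 kb is longer than that of keratins, which widens their windows. For none of the 12 linkers was the nearest peak matched in replicate 2. The peak near PLEC is also the nearest of the linker EPPK1. Of 94 keratin-associated protein genes, 20 had a summit within 100 kb (21.3%, beside 29.9% of all genes). Those within 10 kb were 3 (3.19%, beside 10.2%): KRTAP29-1, KRTAP16-1 and KRTAP21-1. The 20 genes rest on 3 distinct peaks, and KRTAP29-1 and KRTAP16-1 share 1 of them. The median span of the 94 genes is 0.829 kb against 24.1 kb over all genes, which narrows their windows. Their shares are therefore not read as a difference. Of 15 other intermediate filament genes, 4 had one within 100 kb (26.7%, near the 29.9%), and BFSP2, BFSP1 and LMNB1 held one in their span (20.0%, beside 7.10%). The lens filament gene BFSP2 had 18 tags, matched by 6 in replicate 2, BFSP1, its partner in the lens, 8 tags and the lamin LMNB1 8 tags. BFSP2 had 2 peaks within 10 kb, and its values here are those of 1 of them.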

How the data were processed

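Peak lists of the 2 p63 immunoprecipitates were read. Input files were not used here. Each list was called per sample with MACS 1.4.2 against 1 control, keeping 1 tag per position, at a p cut-off of 1e-05, per the file headers. FastQC, Trimmomatic and Bowtie are named per the submitters' processing notes. In the deposited lists the tag count is a whole number per peak, the score equals minus 10 log10 p, with p as MACS gave it, the fold is a ratio to the scaled control, and the false discovery rate is in percent (highest 0.18), as the authors' caller gave them.

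Replicate 1 had 3 sheets with the same 4077 peaks. The first was used, less 83 peaks on other contigs, and the second for its notes. Those contigs carry GRCh38 names, whereas replicate 2 (2934 peaks) held 31 peaks beyond the last gene of 12 chromosomes, so it was not placed on genes. Peaks were paired by summit offsets recurring within 100 bp in at least 2 other pairs over 2 kb and under 10 Mb away (offsets up to 5 Mb, widths under 1 kb). The rule was devised in earlier work after these lists were seen. A gene was counted with a peak for any summit inside its span or up to 100 kb away. Exons were not told apart. Classes, partner lists and members were chosen with earlier results of these data known. Named were all keratins with a summit within 10 kb, basal, stress and simple keratins, KRT1 and KRT10, the strongest peak of each cluster, and listed partners with a summit within 10 kb; the remaining keratins and DSP were named after their values were seen. No test was made, since 1 library could be placed. The window step was tested with planted summits and the pairing step with simulated peaks at uniform random positions. The share of false pairs in the deposited lists was therefore not measured. Python 3.11.15, pandas, NumPy, SciPy and matplotlib were used.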

Additional observations from a re-analysis of the deposited data

How the results depend on the processing

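Counts of keratin genes with a summit moved with the window and the peak threshold. The 38 keratins of the 100 kb window became 23 at 50 kb, 6 at 10 kb and 2 in the gene span, as follows from narrower windows, 11 at a score of 100 or more, 11 with paired peaks alone, 17 with 1 supporting pair and 7 by nearest gene (the last 2 chosen after seeing the data). By class, the gene span left 0 basal, 1 stress, 0 suprabasal, 0 simple, 0 hair, 0 inner root sheath and 1 other keratin. At 10 kb there were 0 basal, 1 suprabasal, 0 simple, 0 hair, 2 inner root sheath and 1 other, and at 50 kb 1 basal, 2 simple, 1 hair and 2 other. A score of 100 or more left 0 basal, 0 stress, 4 suprabasal, 1 simple, 1 hair, 3 inner root sheath and 2 other, and paired peaks alone left 1 basal, 1 stress, 2 suprabasal, 1 simple, 1 hair, 4 inner root sheath and 1 other. Peaks per Mb in the type I cluster fell to 0 at a score of 100 or more, with paired peaks and with 1 supporting pair, and in the type II cluster they fell from 5.10 to 2.55, 2.55 and 3.83. Median tags were 23 over all keratin peaks, 37 in type II and 17 in type I (a single peak) at a score of 100 or more, 31 over all and in type II with paired peaks, and 17 over all and 23 in type II at 10 kb. A fold of 10 or more, a false discovery rate of 1% or less, widths up to 3 kb and leaving out replicate 2 could remove none of the 11 peaks and so show nothing about stability. Counting any base of a peak in place of its summit changed no count by over 1.5 times. Replicate 2 alone was not run, because it was not placed on genes. No paired analysis was possible because the inputs were not used here and no test was made.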
